A study of Homo sapiens with 31 samples.

Results

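MHC class I antigen presentation was examined through 9 genes, HLA-B, HLA-C, HLA-E, HLA-F, B2M, TAP1, TAP2, TAPBP and NLRC5. They were chosen by name, and all 9 were found among the 19221 genes of the FPKM table (fragments per kilobase of transcript, scaled to the mapped fragments of the library, so a level per transcript length). The table covered 31 mRNA libraries of cell lines that the study used as models of ovarian cancer. Its discussion holds reservations about A2780 as such a model and about the origin of C13*. C13* is a cisplatin-resistant line proficient in homologous recombination, and it carried either a control shRNA (C13* shCON, n = 7) or an shRNA against CEBPB, the gene of C/EBPβ (C13* shCEBPB, n = 8), each introduced stably with a lentivirus. A2780 was the parent line (n = 8), and A2780 OlaR was the strain obtained from it under rising olaparib, a PARP inhibitor (n = 8). The study's sequencing methods do not say whether olaparib was present when either was harvested. The study's methods call the libraries of a group biological replicates, without saying what separated them. A p-value here therefore weighs a difference between groups only against the spread between libraries of the same line. Each group was also 1 line or strain, so that differences between groups may belong to that line.

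Class I molecules show peptides from inside the cell to CD8+ T cells. Proteasomes cut cytosolic proteins, the TAP1-TAP2 transporter moves the peptides into the endoplasmic reticulum, and tapasin, encoded by TAPBP, holds the empty class I molecule beside the transporter until a peptide fits. The molecule is a heavy chain (HLA-B and HLA-C are classical, HLA-E and HLA-F nonclassical) bound to the light chain B2M. NLRC5 is the transactivator of class I genes, which it reaches through proteins bound to the SXY module of their promoters, and interferon raises the pathway, in part through IRF1.

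The labels were compared with the libraries before the members were described. CEBPB, the target of the shRNA, was 47.1 ± 9.05 FPKM in C13* shCEBPB and 85.8 ± 9.93 in C13* shCON (SD, n = 8 and 7), and the groups did not overlap. It was 99.7 ± 7.63 FPKM in A2780 and 112 ± 11.6 in A2780 OlaR, with overlap (log2 fold change 0.16, adjusted p = 0.0202, limma). By western blot, the study described C/EBPβ as low in A2780 and strong in C13*. It described a pronounced increase in A2780 OlaR, where mRNA was also measured by RT-qPCR. The libraries labelled A2780 OlaR were close to C13* shCON and far from A2780. Across 12967 genes, the median absolute log2 difference of group means was 0.12 between A2780 OlaR and C13* shCON, 0.69 between A2780 OlaR and A2780, and 0.54 between C13* shCON and C13* shCEBPB. Of 292 genes with at least 5 FPKM in every A2780 OlaR library and under 0.5 in every A2780 library, 265 also had at least 5 FPKM in every C13* shCON library. The reverse rule found 266 genes, of which 248 were under 0.5 in every C13* shCON library. Between C13* shCON and C13* shCEBPB the same rule found 206 genes in 1 direction and 165 in the other. The identity of the cells was not tested, and a difference between A2780 OlaR and A2780, or between the C13* groups, cannot be told apart here from a difference between cell populations. The library labelled C13* shCON replicate 1 had A2780 in its cell line field and C13* in its title. It was kept as C13* shCON, and all 7 C13* shCON libraries were most correlated with another library of that group. EPCAM, KRT8, KRT18, KRT19 and CDH1, the epithelial markers, all reached 1 FPKM in at least 1 library of A2780 OlaR and of C13* shCON, 3 of 5 in A2780 and 2 of 5 in C13* shCEBPB. Their sums ranged from 85.1 to 93.3 FPKM in A2780, 2531 to 3042 in A2780 OlaR, 2312 to 2557 in C13* shCON and 1262 to 1513 in C13* shCEBPB. From C13* shCON to C13* shCEBPB the markers moved in both directions. Mean FPKM rose from 459 to 882 for KRT8 and from 320 to 535 for KRT18. It fell from 111 to 0.567 for EPCAM, from 82.9 to 0.655 for CDH1 and from 1470 to 0.0306 for KRT19. PTPRC, the leukocyte gene of CD45, was 85.9 ± 7.94 FPKM in A2780 (n = 8) and at 0 in every C13* shCON library, while CD3E was at 0 in all 4 groups. The part of these markers in the results was not tested. Of 5 fibroblast markers, 4 reached 1 FPKM in A2780 and 1 to 2 in the other groups, and of 5 Müllerian and ovarian markers 0 to 2 did. FPKM give no read totals, but the steps of low values gave depths relative to the median library of 0.865 to 1.23.

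Of the 9 members, 7 lie on chromosome 6 (hg38, GENCODE 44). HLA-F (chr6:29722775-29738528, plus strand) and HLA-E (chr6:30489509-30494194, plus strand) come first, then HLA-C (chr6:31268749-31272130) and HLA-B (chr6:31353872-31367067) on the minus strand. TAP2 (chr6:32821833-32838739), TAP1 (chr6:32845209-32853816) and TAPBP (chr6:33299694-33314284) follow on the minus strand. B2M lies at chr15:44711358-44718851 and NLRC5 at chr16:56989485-57083531, both on the plus strand. On the same strand, exons of HLA-B overlapped the pseudogene DHFRP2 by 1421 bases (30.7% of the exon bases of HLA-B) and exons of TAP2 overlapped the protein-coding ENSG00000250264 by 2023 (19.5%), so reads there could be shared whatever the strand setting. On the opposite strand, exons of TAP1 overlapped the antisense RNA PSMB8-AS1 by 672 bases and exons of HLA-F overlapped HLA-F-AS1 by 535 and those of TAPBP the lncRNA ENSG00000289100 by 1397, and the strand setting of the authors' counting is not given in the sources used here. The heavy chain genes are near-identical in parts and highly variable between people, so reads could be split or lost among them and their levels are uncertain to that extent.

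The promoters of 7 members were read from RefSeq (GRCh38.p14), and short windows with matches to fixed motifs are shown. Capitals mark matches, on both strands of the 250 bases before the RefSeq start of the gene, to TGACGC (core of the X2 box of the SXY module), ATTGG (Y box), GGGGATTCC (NF-kB site of enhancer A) or GAAANNGAA (core of the interferon-stimulated response element, ISRE). Except in TAP2, these RefSeq starts lie inside the longer GENCODE spans given above, and windows printed for HLA-B, HLA-F, B2M, TAP1 and TAPBP meet an exon of a longer GENCODE transcript of the gene. The X2 to Y stretch is given for 3 heavy chains.
HLA-B, chr6:31357256-31357285, minus strand: TGACGCgtccccacttcccactcccATTGG
HLA-C, chr6:31272168-31272197, minus strand: TGACGCgtccCCAATtcccactcccATTGG
HLA-F, chr6:29723327-29723356, plus strand: taacgcggccccatttctcactcccATTGG
Over these 30 bases HLA-B and HLA-C shared 29, and HLA-F shared 26 with each. TGACGC stood in HLA-B and HLA-C, and also in TAP2, and in 7.69% of 27305 promoters, while ATTGG stood in 33% of promoters and in 5 of the 7 members read. The NF-kB letters were found in 1 member and in 0.249% of promoters.
HLA-B, chr6:31357337-31357366, minus strand: gcgcagcgttGGGGATTCCccactcccctg
The ISRE core stood in 5 of the 7 members, HLA-F and the 4 genes below, and in 7.06% of all promoters. In B2M, TAP1 and TAPBP a pair of matches overlapped, so that the capitals run on.
HLA-F, chr6:29723268-29723297, plus strand: ctccccagagtTTCTCTTTCtctcccaacc
B2M, chr15:44711365-44711394, plus strand: gactctaaGAAAAGGAAACTGAAaacggga
TAP1, chr6:32853816-32853845, minus strand: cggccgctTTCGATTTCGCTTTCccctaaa
TAP2, chr6:32838779-32838808, minus strand: gctggggaagcGAAAGCGAAagctgcccga
TAPBP, chr6:33314079-33314108, minus strand: ccctttggagGAAAGTGAAAGTGAAaggag
The core of C/EBP sites, TTGCNNAA, had no match in the 7 promoters and a match in 9.13% of all promoters. A match is a description of letters, and no binding was measured. Only exact letters were searched, so a missing match, as for the ISRE core in HLA-B and HLA-C, does not show that an element is absent.

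In C13* shCEBPB against C13* shCON, the heavy chains all fell, with log2 fold changes from -1.30 (HLA-E) to -5.28 (HLA-F). TAP1 (-1.16) fell nearly as much as HLA-E and TAP2 (-0.51) fell less, while TAPBP and B2M differed little and NLRC5 rose. HLA-B was 15% and HLA-F 0.462% of their C13* shCON mean FPKM. Of the 9 members, 8 were lower and 1 was higher at an adjusted p under 0.05 (limma on log2(FPKM + 1), Benjamini-Hochberg over 12006 genes), where 45.7% of all genes tested were lower and 38.9% higher. With a fold change of at least 2 besides, 5 members were lower and 0 were higher, against 16.7% and 12.7% of all genes. Libraries did not overlap for 6 members that were lower and 1 that was higher, against 36.7% and 29.3% of all genes. The median log2 fold change was -1.16 over the members and -0.07 over all genes tested. Less RNA per cell and fewer cells that express a gene cannot be told apart in these bulk libraries.

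**Figure D1:**
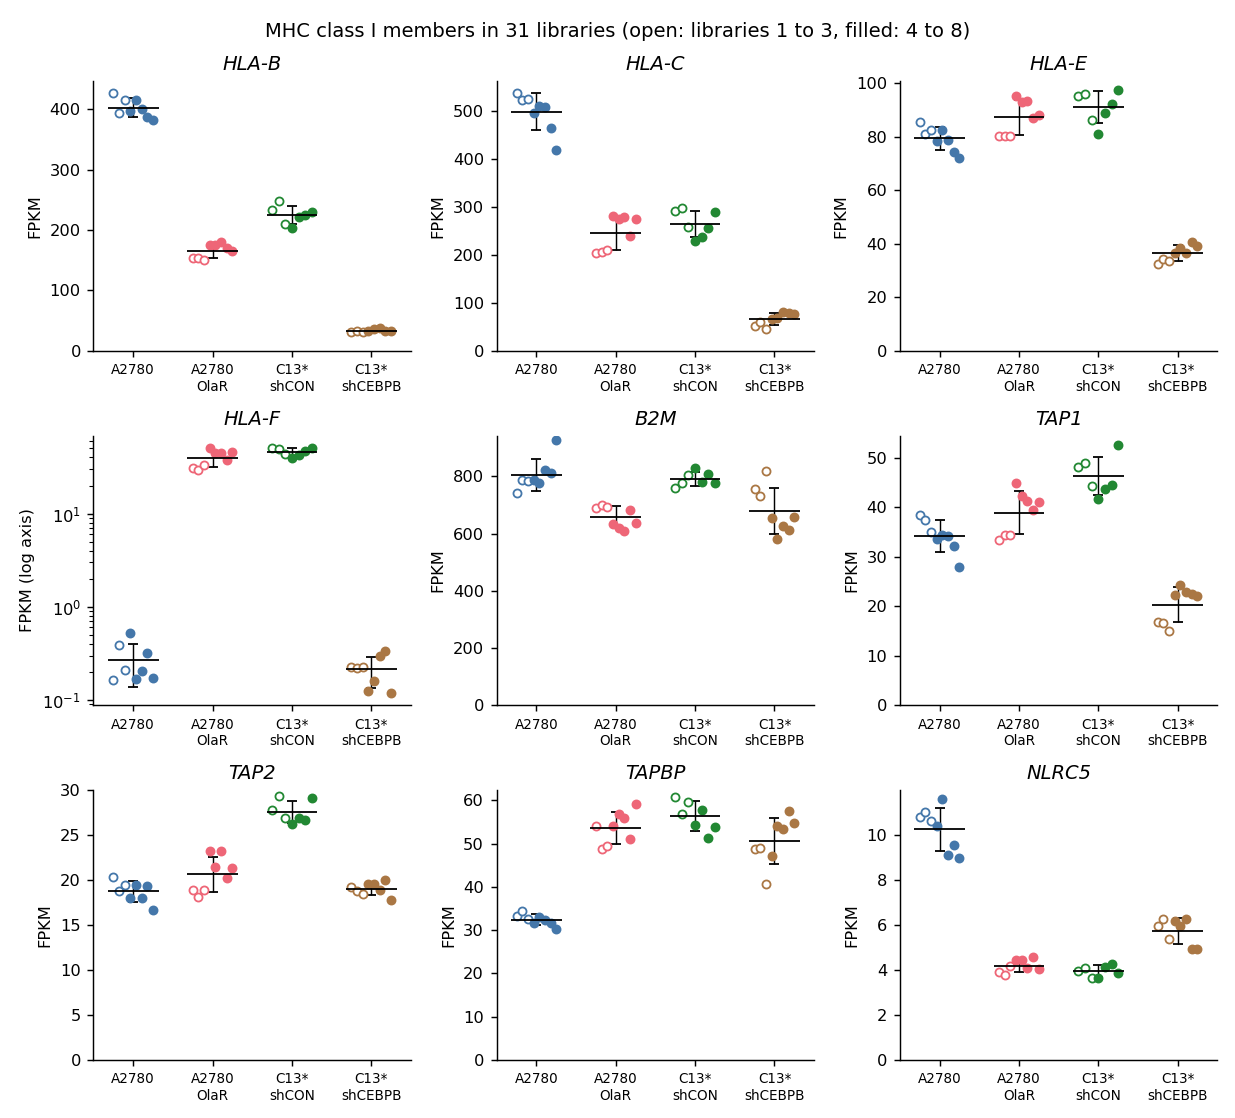
FPKM of each member in each of the 31 libraries, by group, with 1 point a library, a line at the mean and bars of 1 SD. The axis starts at 0 except for HLA-F, which has a log axis, and open points are libraries 1 to 3 by the number in the library code. HLA-F lies between 29.4 and 50.8 FPKM in A2780 OlaR and C13* shCON and between 0.119 and 0.529 in A2780 and C13* shCEBPB.

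HLA-B, a classical heavy chain, ranged from 203 to 248 FPKM in C13* shCON (median 225) and from 31.2 to 37.2 in C13* shCEBPB (median 33.4). Every knockdown library was below every control library. The log2 fold change was -2.70 (SE 0.05, adjusted p = 3.88e-19, limma), and the mean was 6.69 times higher in the control. HLA-C, the other classical heavy chain among the members, ranged from 228 to 297 FPKM in C13* shCON (median 257) and from 45.8 to 81.6 in C13* shCEBPB (median 67.7). The groups stood apart here too, with a log2 fold change of -2.0 (SE 0.11, adjusted p = 7.88e-12, limma).

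HLA-E, whose product is a ligand of NKG2A on natural killer cells, ranged from 81.1 to 97.6 FPKM in C13* shCON (median 92.1) and from 32.3 to 40.8 in C13* shCEBPB (median 36.6). The ranges were separate and the log2 fold change was -1.30 (SE 0.06, adjusted p = 1.37e-13, limma). HLA-F, a nonclassical heavy chain, ranged from 39.9 to 50.8 FPKM in C13* shCON (median 47.1) and from 0.119 to 0.338 in C13* shCEBPB (median 0.222). It was thus a gene of the same order as HLA-E in C13* shCON and near the floor of the table in C13* shCEBPB. Its log2 fold change was -5.28 with the pseudocount of 1 (SE 0.06, adjusted p = 6.16e-22, limma) and -7.77 with a pseudocount of 0.01.

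B2M, the light chain shared by all class I molecules, ranged from 759 to 830 FPKM in C13* shCON (median 781) and from 582 to 820 in C13* shCEBPB (median 656). The ranges overlapped, and the log2 fold change was -0.22 (SE 0.06, adjusted p = 0.00324, limma; exact permutation test, two-sided, p = 0.00668, n = 8 and 7). Within libraries 1 to 3 it was -0.02 (adjusted p = 0.734, limma) and within libraries 4 to 8 it was -0.35 (adjusted p = 1.46e-05, limma). TAP1, a subunit of the peptide transporter, ranged from 41.7 to 52.6 FPKM in C13* shCON (median 44.4) and from 15 to 24.2 in C13* shCEBPB (median 22.1). The groups stood apart and the log2 fold change was -1.16 (SE 0.09, adjusted p = 2.02e-09, limma). TAP2, the other subunit, ranged from 26.3 to 29.4 FPKM in C13* shCON (median 26.9) and from 17.8 to 20 in C13* shCEBPB (median 19.1), also without overlap. Its log2 fold change was -0.51 (SE 0.04, adjusted p = 6.39e-10, limma). The ratio of TAP1 to TAP2 FPKM was 1.67 ± 0.0745 in C13* shCON and 1.06 ± 0.177 in C13* shCEBPB (SD, n = 7 and 8), and its ranges of 1.58 to 1.8 and 0.812 to 1.24 did not meet.

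TAPBP, the gene of tapasin, ranged from 51.4 to 60.9 FPKM in C13* shCON (median 56.9) and from 40.6 to 57.5 in C13* shCEBPB (median 51.3). The ranges overlapped, the log2 fold change was -0.16 (SE 0.06, adjusted p = 0.031, limma), and it was -0.09 with an adjusted p of 0.168 by limma after scaling by median-of-ratios factors. Within libraries 1 to 3 it was -0.36 (adjusted p = 0.00216, limma) and within libraries 4 to 8 it was -0.03 (adjusted p = 0.664, limma), and it also missed the threshold without C13* shCEBPB replicate 4 (-0.14) or without C13* shCON replicates 1 (-0.14), 3 (-0.14) or 5 (-0.15). NLRC5, the transactivator, ranged from 3.62 to 4.28 FPKM in C13* shCON (median 3.95) and from 4.92 to 6.26 in C13* shCEBPB (median 5.95). Every knockdown library was above every control library, opposite to the heavy chains. The log2 fold change was 0.44 (SE 0.06, adjusted p = 1.22e-06, limma) on the log2(FPKM + 1) scale, and the mean FPKM was 1.45 times that of the control. For the 7 members without overlap the exact permutation test gave p = 0.000155, the smallest p it can give with 8 and 7 libraries.

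In A2780 OlaR against A2780, the members moved in both directions. HLA-B, HLA-C, B2M and NLRC5 were lower, HLA-F and TAPBP were higher without overlap, and HLA-E, TAP1 and TAP2 were slightly higher with overlap. Of the 9 members, 5 were higher and 4 were lower at an adjusted p under 0.05 (limma, over 12458 genes), where 40.1% of all genes tested were higher and 49.7% lower. With a fold change of at least 2 besides, 1 was higher and 3 were lower, against 15.5% and 20.1% of all genes. Without overlap, 2 were higher and 4 lower, against 32.8% and 41.3% of all genes. The median log2 fold change over all genes was -0.12, which median-of-ratios scaling moved to 0.01, so changes relative to that median are given too.

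HLA-B ranged from 383 to 427 FPKM in A2780 (median 399) and from 151 to 180 in A2780 OlaR (median 168). The groups stood far apart, with a log2 fold change of -1.28 (SE 0.04, adjusted p = 1.42e-16, limma), or -1.16 relative to the median of all genes. HLA-C ranged from 419 to 537 FPKM in A2780 (median 509) and from 204 to 281 in A2780 OlaR (median 256). Its log2 fold change was -1.02 (SE 0.08, adjusted p = 1.91e-10, limma), or -0.90 relative to the median. Both classical heavy chains were thus lower in A2780 OlaR, where HLA-B held 41.1% and HLA-C 49.4% of the parent mean.

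HLA-F ranged from 0.166 to 0.529 FPKM in A2780 (median 0.209) and from 29.4 to 49.9 in A2780 OlaR (median 41). Its log2 fold change was 4.98 (SE 0.10, adjusted p = 1.25e-19, limma), and 7.23 with a pseudocount of 0.01. HLA-E ranged from 72.1 to 85.4 FPKM in A2780 (median 79.9) and from 80.2 to 95.4 in A2780 OlaR (median 87.6). The ranges overlapped and the log2 fold change was 0.13 (SE 0.05, adjusted p = 0.0114, limma), or 0.25 relative to the median of all genes. Within libraries 1 to 3 it was -0.05 (adjusted p = 0.164, limma) and within libraries 4 to 8 it was 0.24 (adjusted p = 7.07e-05, limma). The nonclassical heavy chains therefore did not follow the classical ones in this comparison.

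B2M ranged from 742 to 926 FPKM in A2780 (median 787) and from 611 to 701 in A2780 OlaR (median 660), without overlap. The log2 fold change was -0.29 (SE 0.04, adjusted p = 4.09e-06, limma), or -0.17 relative to the median. TAP1 ranged from 27.9 to 38.4 FPKM in A2780 (median 34.2) and from 33.4 to 44.9 in A2780 OlaR (median 40.2). Its log2 fold change of 0.18 (SE 0.07, adjusted p = 0.0178, limma), or 0.30 relative to the median, was -0.11 (adjusted p = 0.0252, limma) within libraries 1 to 3 and 0.36 (adjusted p = 2.08e-05, limma) within libraries 4 to 8. The direction of TAP1 thus turned between the number ranges. TAP2 ranged from 16.7 to 20.4 FPKM in A2780 (median 19) and from 18.1 to 23.2 in A2780 OlaR (median 20.7). Its log2 fold change was 0.13 (SE 0.05, adjusted p = 0.0288, limma), or 0.25 relative to the median, -0.06 (adjusted p = 0.203, limma) within libraries 1 to 3 and 0.24 within libraries 4 to 8. The TAP2 call was also lost without any 1 of A2780 OlaR replicates 4, 5 and 6 or A2780 replicates 4, 6 and 8, with log2 fold changes of 0.11 to 0.12. Scaling to a common sum of FPKM ended the calls of HLA-E (0.06), TAP1 (0.11) and TAP2 (0.06), whose exact permutation p-values were 0.0154, 0.0267 and 0.0337 (two-sided, n = 8 and 8).

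TAPBP ranged from 30.2 to 34.4 FPKM in A2780 (median 32.5) and from 48.7 to 59.1 in A2780 OlaR (median 54). Every A2780 OlaR library was higher, with a log2 fold change of 0.71 (SE 0.04, adjusted p = 2.39e-12, limma), or 0.83 relative to the median. NLRC5 ranged from 8.96 to 11.6 FPKM in A2780 (median 10.5) and from 3.77 to 4.57 in A2780 OlaR (median 4.12). Every A2780 OlaR library was lower, with a log2 fold change of -1.12 (SE 0.05, adjusted p = 7.81e-14, limma), or -1.0 relative to the median. For the 6 members without overlap the exact permutation p was 0.000155, the smallest it can give.

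**Figure D2:**
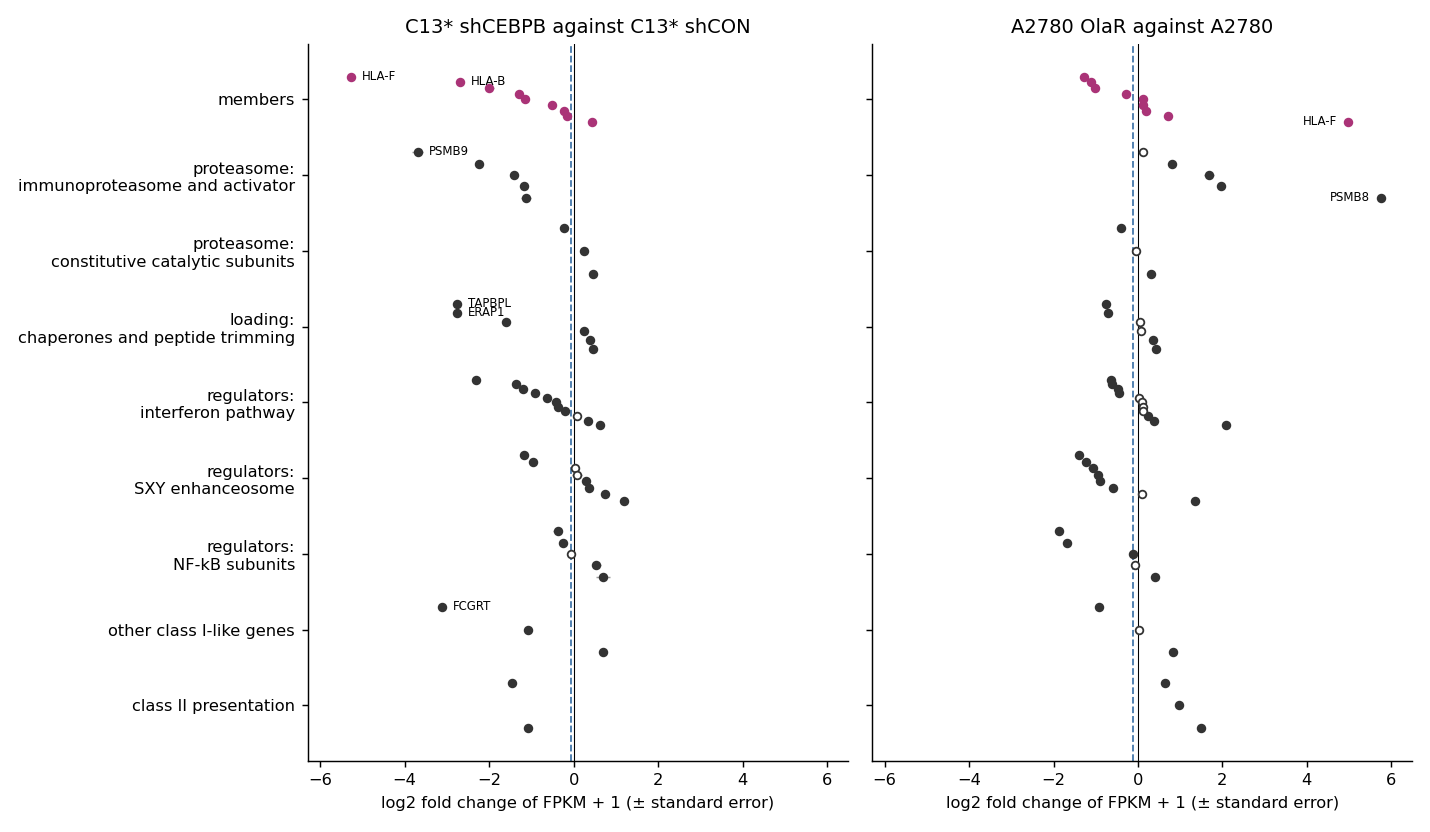
Log2 fold change of FPKM + 1 with its standard error for the members and for the other genes of the pathway, by list, in C13* shCEBPB against C13* shCON (left) and A2780 OlaR against A2780 (right). Filled points have an adjusted p under 0.05 (limma), the dashed line is the median of all genes tested (-0.07 left, -0.12 right), and all 5 immunoproteasome and activator genes lie to the left of 0 in the left panel.

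The order of the levels across the 4 groups was then read for each member. HLA-B had 4 separate levels, A2780 (403 FPKM), C13* shCON (224), A2780 OlaR (165) and C13* shCEBPB (33.6), with no overlap between neighbours. HLA-C had the same order, but C13* shCON and A2780 OlaR overlapped (264 and 246 FPKM, adjusted p = 0.322, limma). HLA-E and HLA-F were highest in C13* shCON (91 and 46.2 FPKM) and A2780 OlaR (87.3 and 39.5), which overlapped in both genes (adjusted p = 0.353 and 0.0787, limma), then came A2780 and last C13* shCEBPB. A2780 overlapped A2780 OlaR for HLA-E and stood apart from it for HLA-F. For HLA-F, A2780 and C13* shCEBPB overlapped as well (0.271 and 0.213 FPKM), and the gene passed no filter on low values in that pair.

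B2M had the flattest order among the members, from 805 FPKM in A2780 through 791 in C13* shCON and 680 in C13* shCEBPB to 659 in A2780 OlaR, with overlap at every step. TAP1 went from C13* shCON (46.3 FPKM) to A2780 OlaR (38.9) and A2780 (34.1), each overlapping the next, and then to C13* shCEBPB (20.3), which stood apart. TAP2 was highest in C13* shCON (27.6 FPKM), apart from A2780 OlaR (20.7), C13* shCEBPB (19) and A2780 (18.8), which overlapped one another in turn. TAPBP was between 50.7 and 56.4 FPKM in 3 overlapping groups and 32.4 in A2780, which stood apart. NLRC5 ran from A2780 (10.3 FPKM) to C13* shCEBPB (5.73), A2780 OlaR (4.17) and C13* shCON (3.94), and only the last pair overlapped (adjusted p = 0.267, limma).

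Between A2780 OlaR and C13* shCON, 3 of the 9 members did not overlap (HLA-B, B2M and TAP2), against 16.6% of all genes. Between C13* shCON and A2780, 7 of 9 did not overlap, against 77.5% of all genes. Between C13* shCEBPB and A2780, 6 of the 8 members tested did not, against 72.3%, and between A2780 OlaR and C13* shCEBPB 6 of 9 did not, against 62.8%. By this count A2780 OlaR was nearest to C13* shCON, over the members as over all genes.

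The 4 heavy chains among the members were also summed in each library. The sum was 980 ± 56.1 FPKM in A2780, 538 ± 59.8 in A2780 OlaR, 626 ± 50.8 in C13* shCON and 137 ± 16.9 in C13* shCEBPB (SD, n = 8, 8, 7 and 8). The ratio of this sum to B2M was 1.23 ± 0.14 in A2780, 0.823 ± 0.135 in A2780 OlaR, 0.794 ± 0.0839 in C13* shCON and 0.205 ± 0.0453 in C13* shCEBPB. Its range in C13* shCEBPB, 0.135 to 0.25, lay below those of the other groups, the lowest of which began at 0.665. The makeup of the sum differed besides its size. HLA-B held 41.1% of it in A2780, 30.9% in A2780 OlaR, 35.9% in C13* shCON and 24.8% in C13* shCEBPB, while HLA-E held 8.11%, 16.3%, 14.6% and 26.9%. HLA-C held between 42.2% and 50.7% in all 4 groups. HLA-F held 7.29% in A2780 OlaR and 7.38% in C13* shCON, but 0.0278% in A2780 and 0.158% in C13* shCEBPB.

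**Figure D3:**
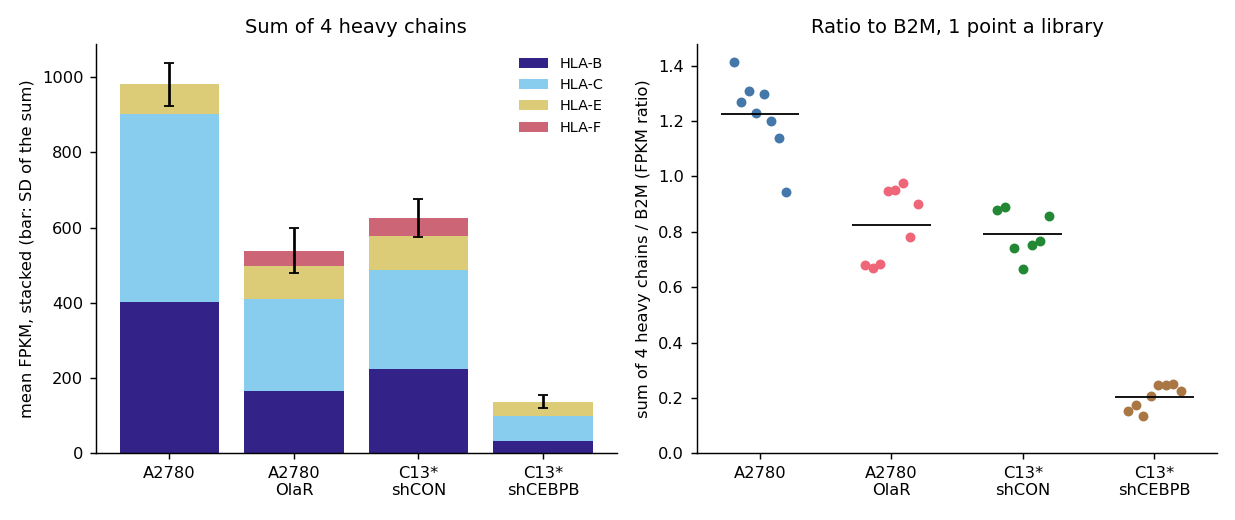
Left, mean FPKM of HLA-B, HLA-C, HLA-E and HLA-F stacked by group, with the SD of the sum over libraries. Right, the sum divided by B2M in each library, with a line at the mean, which is 0.205 in C13* shCEBPB and between 0.794 and 1.23 in the other groups.

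Within groups, the libraries numbered 1 to 3 and 4 to 8 in their codes were compared, a number whose meaning the labels do not give. In A2780 OlaR, 7 of 9 members did not overlap between the number ranges, where 56.9% of all genes did not. HLA-B, HLA-C, HLA-E, HLA-F, TAP1 and TAP2 were higher in libraries 4 to 8, and B2M was lower. HLA-F, for example, was 31.1 ± 1.9 FPKM in libraries 1 to 3 and 44.6 ± 4.6 in libraries 4 to 8 (SD, n = 3 and 5). In C13* shCEBPB, 4 of the 8 members tested did not overlap, against 53.2% of all genes. HLA-C was 52.8 ± 7.36 and 74.5 ± 6.46 FPKM there, TAP1 was 16.2 ± 0.987 and 22.8 ± 0.848, and B2M ran the other way, at 769 ± 46.1 and 627 ± 31.4 (SD, n = 3 and 5). HLA-E was higher in libraries 4 to 8 as well.

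In A2780, 2 of the 8 members tested did not overlap, HLA-C and TAP1, both lower in libraries 4 to 8, against 20.6% of all genes. In C13* shCON all 9 members overlapped between the number ranges, where 4.77% of all genes did not. In C13* shCEBPB against C13* shCON, HLA-B fell by 2.80 on the log2 scale within libraries 1 to 3 and by 2.64 within libraries 4 to 8, and HLA-C fell by 2.40 and 1.74.

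**Figure D4:**
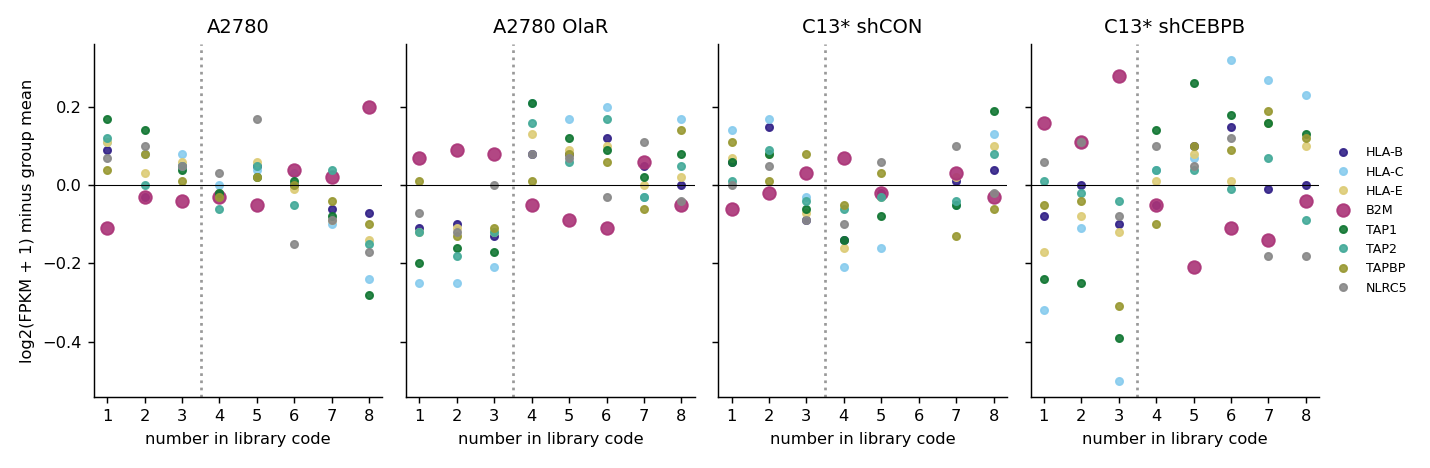
Difference of log2(FPKM + 1) from the group mean for 8 members (HLA-F left out), by the number in the library code, with 1 panel a group. A dotted line parts libraries 1 to 3 from 4 to 8, and the large B2M points lie above 0 in libraries 1 to 3 and mostly below 0 in 4 to 8 in A2780 OlaR and C13* shCEBPB, opposite to HLA-C and TAP1.

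The other genes of the pathway were read from lists by function, and numbers in parentheses after a gene are its log2 fold change of FPKM + 1. The counts of each list stand beside the shares of all genes called, 38.9% higher and 45.7% lower in C13* shCEBPB against C13* shCON and 40.1% and 49.7% in A2780 OlaR against A2780. The immunoproteasome is the form of the proteasome in which PSMB8, PSMB9 and PSMB10 replace the constitutive catalytic subunits, and PSME1 and PSME2 form its activator cap. All 5 fell in C13* shCEBPB against C13* shCON, each at least 2-fold, with a list median of -1.41. PSMB9 was 52.7 ± 8.42 FPKM in C13* shCON and 3.2 ± 0.946 in C13* shCEBPB (log2 fold change -3.69, adjusted p = 1.11e-14, limma). PSMB8 was 69.2 ± 4.54 and 13.9 ± 1.14 (-2.24), and PSME1 (-1.41), PSME2 (-1.17) and PSMB10 (57.6 ± 8.32 and 26.1 ± 5.24 FPKM) followed. In A2780 OlaR against A2780, 4 of the 5 rose, with a list median of 1.68. PSMB8 was 0.355 ± 0.179 FPKM in A2780 and 72.3 ± 7.02 in A2780 OlaR (5.76, adjusted p = 7.39e-23, limma), a pattern over the 4 groups that resembled HLA-F except in C13* shCEBPB. PSMB10 (1.96), PSMB9 (1.68) and PSME1 (0.80) were higher too, and PSME2 did not pass the test (0.11, adjusted p = 0.0903, limma). The constitutive subunits PSMB5, PSMB6 and PSMB7 changed by at most 0.45 in either comparison (2 higher and 1 lower in C13*, 1 higher and 1 lower in A2780).

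Of 6 loading chaperones and trimming enzymes, 3 rose and 3 fell in C13* shCEBPB against C13* shCON. ERAP1 and ERAP2, which trim peptides in the endoplasmic reticulum, fell by 2.75 and 1.61 on the log2(FPKM + 1) scale, and their mean FPKM was 8.45 and 6.76 times higher in the control. TAPBPL, a peptide editor related to tapasin, fell by 2.75 on that scale as well, but its mean went from 6.47 ± 0.753 to 0.105 ± 0.0808 FPKM, 61.4 times higher in the control, since the pseudocount of 1 understates the change of a low gene. The chaperone PDIA3, a partner of tapasin, rose (0.45). Between A2780 OlaR and A2780, 2 of the 6 were higher in the strain (CANX 0.42, TAPBPL 0.35) and 2 lower (ERAP2 -0.76, PDIA3 -0.72), and the list median was 0.06.

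Of 11 genes of the interferon pathway, 2 rose and 8 fell in C13* shCEBPB against C13* shCON (38.9% and 45.7% of all genes), with a median of -0.41 against -0.07 over all genes. IRF2 (-2.30), IRF1 (-1.37), IRF9 (-1.20) and the kinase JAK2 (-0.91) had the largest changes, and IRF1, the factor that binds ISRE sites of class I genes after interferon, went from 15.1 ± 0.638 to 5.26 ± 0.614 FPKM. The A2780 comparison had 3 that rose and 4 that fell, with a median of 0.09. IRF1 was 2.62 ± 0.23 FPKM in A2780 and 14.4 ± 1.14 in A2780 OlaR (2.09, adjusted p = 2.09e-18, limma), while the receptor chains IFNAR2 (-0.63) and IFNAR1 (-0.47) and the kinase JAK2 (-0.62) were lower.

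The proteins through which NLRC5 reaches the SXY module formed the next list. Of 8 genes tested, 4 rose and 2 fell in C13* shCEBPB against C13* shCON, a share called no larger than that of all genes. The largest changes were those of ATF1 (1.19), CREB1 (-1.18), RFXAP (-0.97) and RFX5 (0.74). For A2780 OlaR against A2780, 1 rose and 6 fell, with a median of -0.92, and NFYC (-1.39), RFXAP (1.35), NFYB (-1.22) and RFXANK (-1.07) had the largest changes. CIITA, the class II counterpart of NLRC5, was at most 0.293 FPKM in any library and was not tested. Of the 5 NF-kB subunits, RELB (0.69) and NFKB2 (0.54) rose and REL (-0.38) and NFKB1 (-0.26) fell in C13* shCEBPB against C13* shCON. From A2780 to A2780 OlaR, RELB (-1.87), NFKB2 (-1.69) and NFKB1 (-0.12) fell and RELA (0.40) rose. The change of NFKB1 equalled the median of all genes tested (-0.12), and its libraries overlapped.

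Of 6 other class I-like genes, 3 were tested. FCGRT, the neonatal Fc receptor that also binds B2M, fell by 3.12 on the log2 scale in C13* shCEBPB against C13* shCON, MR1 fell by 1.09 and HFE rose (0.70). In the A2780 groups, MR1 rose (0.82), HFE fell by 0.92 and FCGRT did not pass the test (0.03, adjusted p = 0.715, limma). Few class II genes were expressed. Of 10, 2 passed the filter in the C13* groups, HLA-DMA (-1.46) and CTSS (-1.07), and 3 in the A2780 groups, HLA-DMA (1.5), CTSS (0.97) and CD74 (0.65).

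The genes whose pattern over the 4 group means was nearest to a member were found among 12967 genes, by the Euclidean distance between centred log2(FPKM + 1) means over 4 points. HERC6 (distance 0.18), GBP1 (0.19), ZNF391 (0.35), HMGA2 (0.35) and FAM198B (0.36) lay nearest to HLA-B, where the median gene lay at 2.66. HERC6 and GBP1 are known as interferon-induced genes. Their means in C13* shCEBPB were 0.0215 and 0.000981 FPKM against 5.29 and 5.09 in C13* shCON, a larger ratio than that of HLA-B, so their short distance depends on the pseudocount of 1. By the same measure HLA-C ranked 29 in that order (0.56). ANKRD13D (0.02), FHAD1 (0.04), ZNF600 (0.06), ORC6 (0.07) and CEP57L1 (0.07) lay nearest to TAP1, with HLA-E at rank 218 (0.30) and a median gene at 1.21. PARD3 (0.03), CRAMP1 (0.05), RFWD2, XPOT and SLC25A35 (0.06 each) lay nearest to NLRC5, with a median gene at 1.23. B2M was the member with the pattern nearest to NLRC5, at rank 3672 (0.86), and HLA-B stood at rank 11388 (2.51). With 4 points and 31 shared libraries these distances are a description.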

How the data were processed

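The authors sequenced mRNA in 150-bp paired-end reads, mapped them to hg38 with TopHat and counted them with HTSeq. The deposited FPKM were used as given. The annotation and the strand setting behind them are not given in the sources used here, and no counts were used. Of the gene rows, 4 with repeated symbols that a spreadsheet had turned into dates were left out, and 19221 genes remained. A gene entered the test when the number of libraries with 1 FPKM or more was no smaller than the size of the smaller group. The test was limma 3.58.1 (R 4.3.3, lmFit, eBayes with a trend, two-sided) on log2(FPKM + 1), each comparison on its own groups, with Benjamini-Hochberg adjustment over all genes and a threshold of 0.05. Single members also had an exact permutation test of mean log2(FPKM + 1).

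Other pseudocounts (0.1, 0.01), filters, scalings, blocks, subsets of libraries, a rank test and a threshold of 0.01 were tried. The members, the gene lists and the motifs were chosen with earlier results of these data known. All members are named, besides up to 4 genes of each list with the largest change, CEBPB, and the 5 genes nearest in pattern to NLRC5, TAP1 and HLA-B. Other genes named were chosen after their values were seen. Promoters came from RefSeq (GRCh38.p14). A gene of the interferon list is not reported here.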

Additional observations from a re-analysis of the deposited data

Results flagged for a closer look

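Of 36 pairs of a member and a group, 1 held a library whose gap to its nearest neighbour was large for the range of the group (Dixon's test at 95%, which flags about 1 in 20 groups by chance). B2M was 926 FPKM in A2780 replicate 8, while the other A2780 libraries lay between 742 and 824.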

How the results depend on the processing

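In C13* shCEBPB against C13* shCON, HLA-B, HLA-C, HLA-E, HLA-F, TAP1 and TAP2 kept their direction and their call under all 29 alternatives. NLRC5 did so under the 28 in which it was tested. With a filter at 5 FPKM it was not tested, so that 0 members were called higher and 0 were higher without overlap. B2M lost its call in 2 alternatives and TAPBP in 9. In A2780 OlaR against A2780, HLA-B, HLA-C, HLA-F, B2M, TAPBP and NLRC5 kept direction and call under all 30. HLA-E, TAP1 and TAP2 did not. Within libraries 1 to 3 they were -0.05, -0.11 and -0.06, where the median over all genes was -0.11. There 2 members were called higher in place of 5, where 5112 of 12600 genes tested were higher. The count of members called higher was also 2 with a common sum of FPKM and 2 at an adjusted p under 0.01. With the common sum, 4646 of 12451 genes tested were higher. Median-of-ratios factors left 1 member at least 2-fold lower in place of 3, and within libraries 4 to 8, 5 members were higher without overlap in place of 2. The cause was not tested. The 4 comparisons behind the order of levels kept their counts of members called within 1.5 times under all alternatives tried. Leaving out 1 library left 7 to 8 members called lower and 1 higher in C13*, and 4 to 5 higher and 4 lower in A2780. Counts given here without a share of all genes record the calls alone and are no result about the members.

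The deviations of same-numbered libraries from their group means had a mean correlation over genes of -0.148 in C13* and -0.233 in A2780, so the replicate numbers were not taken as pairs. With a replicate block, 7 members were lower and 1 higher in C13*, and 3 were higher and 4 lower in A2780. Of all genes tested with that block, 5373 of 12006 were lower and 4512 higher in C13*. In A2780, 6071 of 12458 were lower and 4889 higher. The block by library number also gave 3 members higher in A2780. The replicate block ended the calls of TAPBP in C13* (-0.17, adjusted p = 0.0543, limma) and of TAP1 (0.18) and TAP2 (0.13) in A2780. FPKM hold no counts, so no counting error is given, and values near 0, such as HLA-F in A2780, are less certain than their SD shows.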
